A study of Mus musculus with 12 samples.

Results

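The genes described are 6 of the 19938 genes measured in whole mouse bone marrow, and all are used to recognise plasma cells, the antibody-secreting cells of the B lineage: Jchain, Irf4, Mzb1, Xbp1, Prdm1 and Sdc1. They were picked by symbol with earlier results of these data known, and so were the gene lists used below. Counts of called genes set beside the share over all genes are therefore a description. Each of the 6 had a single row in the table of values. Jchain was chosen for its pattern across the 4 groups of these same arrays, so its values are given as a description with no test. The other 5 genes were tested.

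The study used B6 mice in 4 groups of 3 arrays each. The irradiated PTH group was irradiated sub-lethally when 10 days old, with 2 fractions of 310 cGy, and then received parathyroid hormone (PTH), a peptide that raises bone formation when given intermittently, on days 11 to 15. The irradiated vehicle group had the same irradiation and vehicle on the same days. The nonirradiated PTH and nonirradiated vehicle groups had the 2 treatments without irradiation. Marrow was flushed from long bones at day 16, which was 6 days after irradiation, and total RNA was hybridised to whole-transcript arrays. Whether each array stands for its own mouse or a pool is not stated in the labels. A p-value therefore covers only the spread among these samples, which may be technical. In each irradiated group the sex-linked genes differ among the 3 arrays, so those 3 are not all repeats of a single mouse or pool. All values are log2 expression, on which a difference of 1 is a doubling.

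Plasma cells arise when an activated B cell leaves the B cell programme and builds up its secretory machinery. IRF4 and BLIMP-1, the product of Prdm1, are transcription factors that drive this step, XBP1 expands the endoplasmic reticulum, and MZB1 is an endoplasmic reticulum protein that helps antibody assembly. The J chain links antibody units into secreted IgM pentamers and IgA dimers, and syndecan-1, from Sdc1, is the surface proteoglycan CD138. Several of these genes are active elsewhere: Irf4 in B cells, T cells and dendritic cells, Mzb1 in B cells and plasmacytoid dendritic cells, Xbp1 in most secretory cells and Sdc1 in epithelia. Marrow is where long-lived plasma cells reside in the adult, and the mice studied here were only 16 days old.

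The stretches upstream of Jchain and Irf4 are shown because these were the pair of members with the largest differences between irradiated and nonirradiated marrow, and the differences ran in opposite directions. Each runs 5′ to 3′ on the strand of the gene in RefSeq's assembly GRCm38.p6 and holds 250 bases before the annotated start and 50 bases after it. The start base is in capitals, and so is the TATA box of Irf4. The Jchain stretch lies at chr5:88527848-88528147 on the minus strand and the Irf4 stretch at chr13:30748983-30749282 on the plus strand.
Jchain: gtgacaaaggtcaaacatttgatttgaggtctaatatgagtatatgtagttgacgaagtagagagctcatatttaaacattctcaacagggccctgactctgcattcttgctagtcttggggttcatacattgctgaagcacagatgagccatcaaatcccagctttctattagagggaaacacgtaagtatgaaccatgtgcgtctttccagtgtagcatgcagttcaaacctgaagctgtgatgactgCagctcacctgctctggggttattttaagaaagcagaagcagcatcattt
Irf4: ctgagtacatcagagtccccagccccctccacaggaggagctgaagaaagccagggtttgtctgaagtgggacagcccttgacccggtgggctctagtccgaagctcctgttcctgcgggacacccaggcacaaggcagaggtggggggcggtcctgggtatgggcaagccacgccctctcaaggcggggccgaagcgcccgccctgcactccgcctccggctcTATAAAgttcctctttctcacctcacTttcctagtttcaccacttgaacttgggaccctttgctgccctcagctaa
Of the 6 genes, 5 had a stretch in the table of promoters. Both strands were searched for the octamer ATTTGCAT bound by OCT factors, the XBP1 element TGACGTGG, the PRDM1 site AGNGAAAG, a composite PU.1 and IRF element, TATAAA and CCAAT. The Jchain stretch held 0 of these 6 motifs. The Irf4 stretch held TATAAA at 26 bases before the start, and Prdm1 and Sdc1 each held 1 CCAAT box, read as ATTGG. Of all 32851 promoters in the table, 1.74% held the octamer, 0.676% the XBP1 element, 8.63% the PRDM1 site, 2.72% the composite element, 13.6% TATAAA and 37.4% CCAAT. A match describes the letters of this window and is not a measured binding site.

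The irradiated groups each held 1 array with the female pattern of sex-linked genes among 3, the nonirradiated PTH group held 3 of 3, and the nonirradiated vehicle group held 0 of 3. The nonirradiated groups thus differ in sex as well as in treatment, and PTH and sex cannot be told apart between them. Irradiated PTH replicate 3 and nonirradiated vehicle replicate 3 had narrow ranges, with interquartile ranges of 2.66 and 2.63 against 3 to 3.14 on the other arrays. Irradiated PTH replicate 3 was the lowest of the 12 arrays for 4 of the 6 genes, namely Xbp1, Sdc1, Irf4 and Mzb1. The table holds no detection calls, so whether a gene was above background is not known, and levels are not compared between genes. For the same reason the label of whole marrow could not be checked through the presence of marker genes.

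Jchain was higher in irradiated than in nonirradiated marrow, and higher again where PTH followed irradiation. Its log2 level was 6.94, 5.95 and 6.70 on the irradiated PTH arrays and 5.33, 5.71 and 5.56 on the irradiated vehicle arrays. It was 4.68, 4.63 and 4.42 on the nonirradiated PTH arrays and 4.67, 4.58 and 4.51 on the nonirradiated vehicle arrays. Every irradiated PTH array was above every irradiated vehicle array, with a gap of 0.24, and every irradiated vehicle array was above all 6 nonirradiated arrays, while the nonirradiated groups overlapped.

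The group means of Jchain were 6.53 ± 0.52 with irradiation and PTH, 5.53 ± 0.19 with irradiation and vehicle, 4.58 ± 0.14 with PTH alone and 4.59 ± 0.083 with vehicle alone (SD, n = 3 each). Irradiated PTH marrow was 3.87-fold above nonirradiated PTH marrow, and irradiated vehicle marrow was 1.93-fold above nonirradiated vehicle marrow. Irradiated PTH marrow was 2.00-fold above irradiated vehicle marrow, and without irradiation the log2 difference between PTH and vehicle was -0.01. The difference between PTH and vehicle after irradiation was 0.79 on the log2 scale without irradiated PTH replicate 1 and 1.29 without irradiated PTH replicate 2. Of all 19938 genes, 11 (0.0552%) had the same order of arrays as Jchain, with irradiated PTH above irradiated vehicle above all nonirradiated arrays. The order was the reason Jchain was chosen, and nothing is read from that share.

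**Figure D1:**
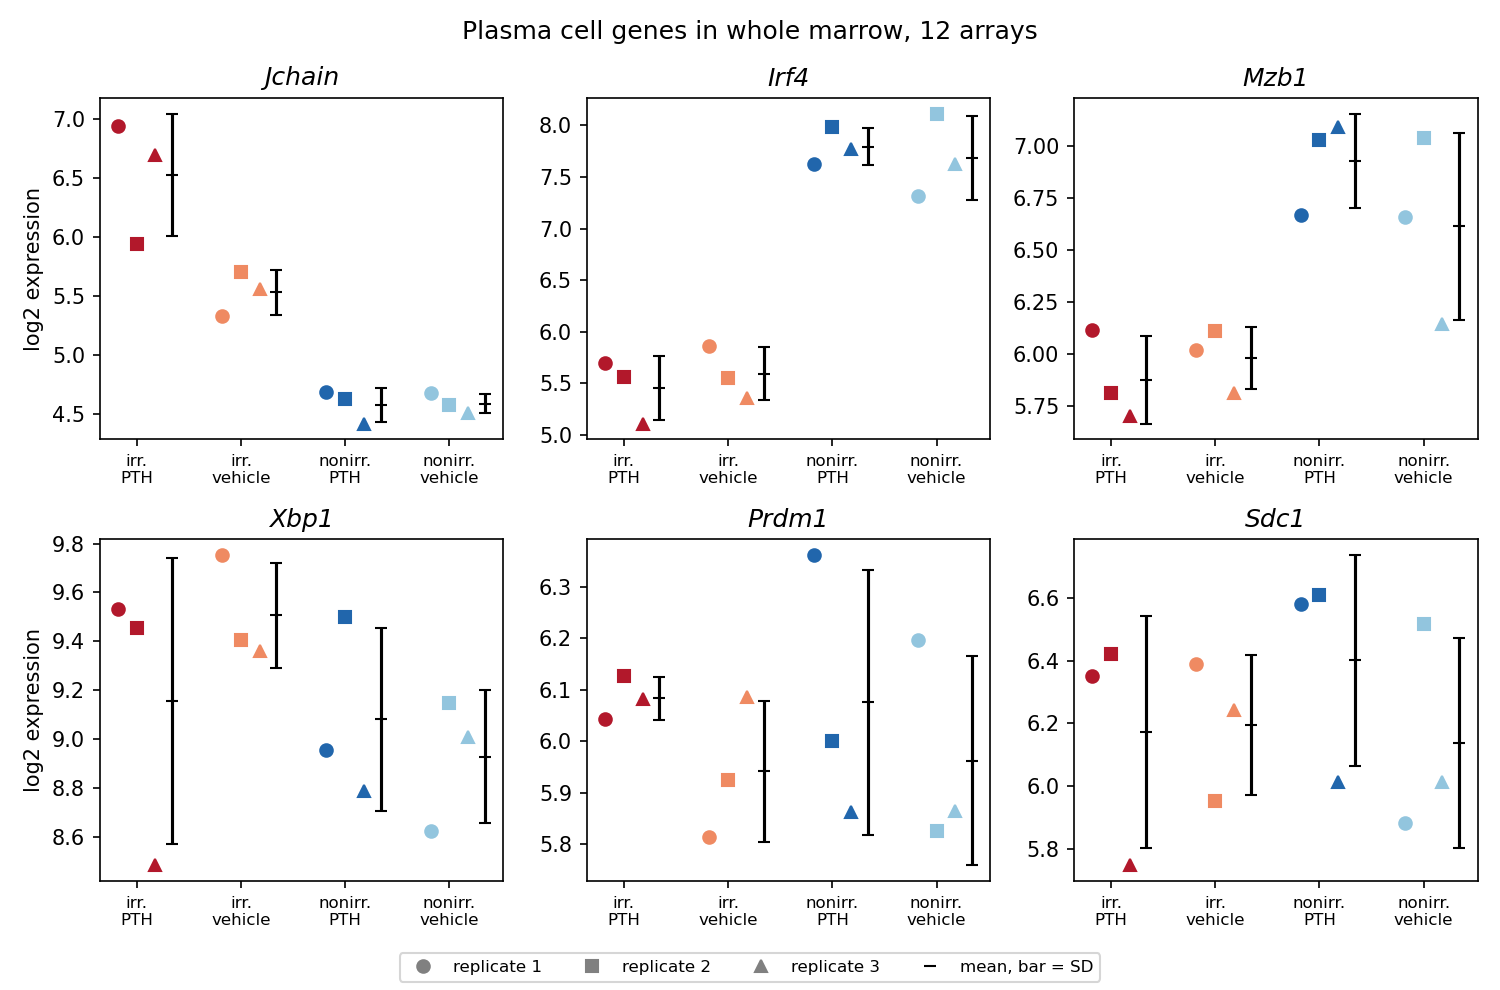
Log2 expression of the 6 genes on the 12 arrays, with 1 panel per gene, groups along the horizontal axis, a point per array (shape gives the replicate number) and a black bar for the group mean with its SD (n = 3). Jchain was highest on the irradiated arrays, Irf4 and Mzb1 were lowest on them, and Prdm1 and Sdc1 overlapped between groups.

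Irf4 moved the other way and had the smallest adjusted p of the tested members. It fell to 5.70, 5.56 and 5.11 on irradiated PTH arrays, against 7.63, 7.99 and 7.77 on nonirradiated PTH arrays. It also fell to 5.87, 5.56 and 5.36 on irradiated vehicle arrays, against 7.31, 8.12 and 7.63 on nonirradiated vehicle arrays. All 6 irradiated arrays lay below all 6 nonirradiated arrays. The log2 difference was -2.34 ± 0.22 (SE) with PTH (5.06-fold lower, limma adjusted p = 0.000224) and -2.09 ± 0.22 with vehicle (4.26-fold lower, limma adjusted p = 0.000566). Both calls held in each of the 25 alternative settings, and the difference between them did not pass the test (interaction -0.25, limma adjusted p = 0.81).

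Mzb1 was lower in irradiated marrow as well. Its level was 6.11, 5.81 and 5.70 on irradiated PTH arrays, against 6.67, 7.03 and 7.09 on nonirradiated PTH arrays. It was 6.02, 6.11 and 5.81 on irradiated vehicle arrays, against 6.66, 7.04 and 6.14 on nonirradiated vehicle arrays. The groups did not overlap under either treatment, but the gap with vehicle was only 0.034, because nonirradiated vehicle replicate 3, a narrow-range array, lay close to the irradiated ones. With PTH the log2 difference was -1.05 ± 0.21 (SE) and passed the test (limma adjusted p = 0.0213), and with vehicle it was -0.63 ± 0.21 and did not (limma adjusted p = 0.181). Averaged over both treatments Mzb1 fell by 0.84 on the log2 scale (SE 0.149, limma adjusted p = 0.00475), and this call held in all 23 alternatives run for the average.

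The call for Mzb1 under PTH was lost without nonirradiated PTH replicate 2 (limma adjusted p = 0.0936), without nonirradiated PTH replicate 3 (0.0993), without irradiated PTH replicate 2 (0.0553) and without irradiated PTH replicate 3 (0.0634). It was also lost with a term for sex (0.197), where the log2 difference was -0.91. Irf4 and Mzb1 were measured in whole marrow, where fewer cells of a type and less RNA per cell cannot be told apart.

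Xbp1, Prdm1 and Sdc1 gave no call in either treatment. Xbp1 was 9.75, 9.41 and 9.36 on irradiated vehicle arrays, against 8.62, 9.15 and 9.01 on nonirradiated vehicle arrays, and these groups did not overlap. Its log2 difference of 0.58 had a 95% interval of -0.02 to 1.18 and did not pass (limma adjusted p = 0.397). With PTH it was 9.53, 9.46 and 8.48 after irradiation, against 8.95, 9.50 and 8.79 without, a difference of 0.08 with an interval of -0.52 to 0.68. The lowest of these was the narrow-range array of the irradiated PTH group.

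Prdm1 stayed between 5.81 and 6.36 on all 12 arrays. Its log2 difference after irradiation was 0.01 with PTH (95% interval -0.32 to 0.34) and -0.02 with vehicle (-0.35 to 0.31). Sdc1 lay between 5.75 and 6.61, and its differences were -0.23 with PTH (-0.74 to 0.28) and 0.06 with vehicle (-0.45 to 0.57). Changes of either gene within these bounds could not be told from 0 with 3 arrays a group.

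Of the 5 tested genes, 2 were called lower under PTH and 1 under vehicle. Over all genes 2.43% were called in the PTH comparison, with 1.74% called lower, and 2.22% in the vehicle comparison, with 1.01% called lower. In the average over both treatments 2 of the 5 were called, against 6.1% of all genes, of which 3.59% of all genes were lower. The groups did not overlap for 2 of the 5 genes under PTH and 3 of the 5 under vehicle, against 19.8% and 18.8% of all genes. The 5 genes were picked with earlier results of these data known, so nothing is read from these shares.

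**Figure D2:**
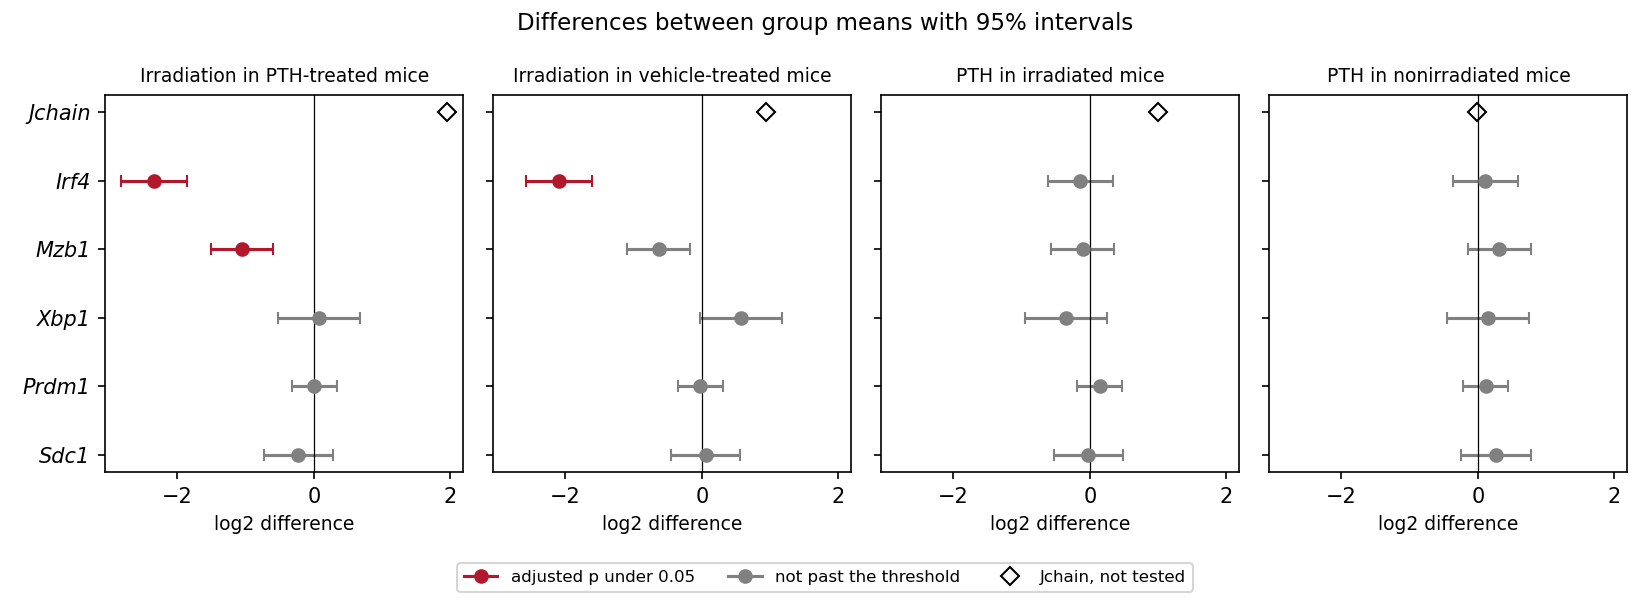
Log2 differences between group means (horizontal axis, first-named condition minus the other) for the 6 genes in 4 comparisons, with 95% intervals from limma for the 5 tested genes. Red points passed the threshold of 0.05 after adjustment, grey points did not, and the open diamonds show Jchain, which has no interval because it was not tested.

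For PTH against vehicle, none of the 5 tested genes passed the threshold. After irradiation the log2 differences between PTH and vehicle were -0.14 for Irf4, -0.10 for Mzb1, -0.35 for Xbp1, 0.14 for Prdm1 and -0.02 for Sdc1, and the arrays of the 2 treatments overlapped for all 5. The widest of their intervals was that of Xbp1, at -0.95 to 0.25. Without irradiation the differences were 0.11, 0.32, 0.15, 0.11 and 0.26 in the same order of genes. There 3 of 3 PTH arrays and 0 of 3 vehicle arrays had the female pattern, so PTH and sex cannot be told apart. The interaction of irradiation with PTH draws on these groups as well. In limma, 0% of all genes were called in either of these comparisons and 0% in the interaction of irradiation with PTH. An unadjusted p under 0.05 was found for 759, 356 and 1094 of the 19938 genes. Where no gene differs, a share of 0.05 of all genes is still expected to have such a p, so nothing is read from these counts. The PTH and vehicle arrays did not overlap for 9.73% of all genes after irradiation and for 6.84% without it. The irradiated PTH arrays serve both the comparison with irradiated vehicle and that with nonirradiated PTH, so the 2 differences of a gene are not independent.

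Of the antibody genes, Igha and Ighm fell in irradiated marrow in the average over both treatments, while 0 of the 4 measured were called under vehicle alone. Of 13 listed antibody and transport genes 4 could be measured: Igha and Ighm, the heavy chains of IgA and IgM, Ighg3, a heavy chain of IgG, and Pigr, the receptor that carries J chain-containing antibody across epithelia. Averaged over both treatments 2 of the 4 fell in irradiated marrow and none rose, where 3.59% of all genes were called lower. The median log2 difference was -0.75 over the list, against -0.01 over all genes. Igha was 7.72, 7.11 and 6.08 on irradiated PTH arrays and 9.28, 9.56 and 9.83 on nonirradiated PTH arrays. It was 7.64, 9.41 and 7.59 on irradiated vehicle arrays and 9.04, 9.63 and 9.55 on nonirradiated vehicle arrays, so 1 irradiated vehicle array lay among the nonirradiated ones. Igha fell by 1.89 on the log2 scale on average (limma adjusted p = 0.00475), and fell by 2.58 under PTH (0.0131), a call lost with a term for sex and without nonirradiated PTH replicate 2 or 3 (adjusted p up to 0.101), with log2 differences of -2.50, -2.58 and -2.45 in that order. Under vehicle its difference of -1.20 did not pass (0.283).

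Ighm fell by 0.82 on average (limma adjusted p = 0.0194), and the call was lost without nonirradiated vehicle replicate 2 (0.0536) and without nonirradiated PTH replicate 3 (0.0506), which left 1 gene of the list called. The array has 3 rows for Ighm, which differed in size: under vehicle the differences were -0.68, -0.67 and -2.10 from the brightest row to the dimmest, and under PTH -0.95, -0.79 and -3.02. The 2 rows of Igha differed less, at -1.20 and -1.35 under vehicle and -2.58 and -2.28 under PTH. Of the 8 measured immunoglobulin variable, diversity and joining segments, 6 had negative differences under PTH, with a median of -0.85, and 7 under vehicle, with a median of -0.62. Copies of antibody segments are alike, and how the array splits signal among them is not known.

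**Figure D3:**
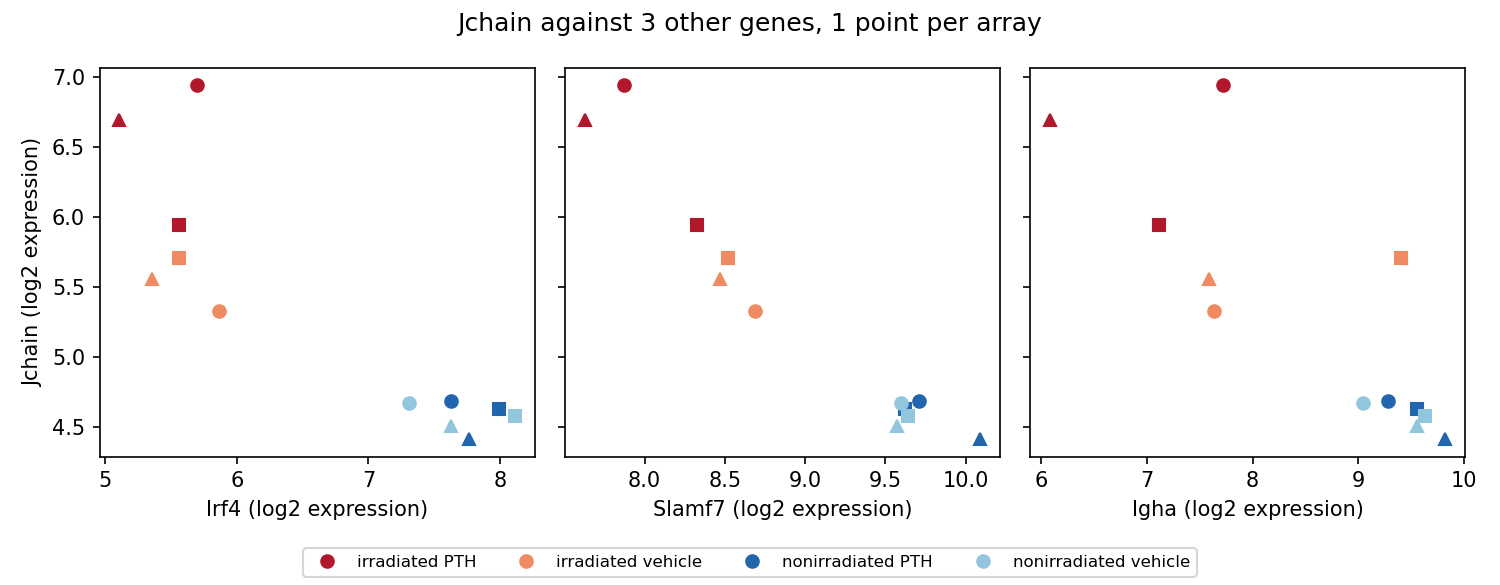
Jchain (vertical axis) against Irf4, Slamf7 and Igha (horizontal axes), in log2 expression, with 1 point per array, colour for the group and shape for the replicate number. In all 3 panels the irradiated arrays stand at high Jchain, and all of them are at low Irf4 and Slamf7, while 1 irradiated vehicle array is at high Igha. Jchain was chosen for its pattern across groups. Slamf7 had the lowest Pearson r to Jchain of all genes (-0.969), so nothing is read from the opposition in its panel.

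Among 23 measured genes of a longer plasma cell list (24 listed), 6 fell under PTH and 6 under vehicle after irradiation, and 0 rose. Over all genes 1.74% were called lower under PTH and 1.01% under vehicle. In the average 9 genes of the list fell and 1 rose, against 6.1% of all genes called and 3.59% called lower. The 1 that rose was Ell2, an elongation factor that favours the secreted form of antibody transcripts (0.43, limma adjusted p = 0.0399). The Ell2 call held in only 4 of the 12 fits that left out an array: it was lost without replicate 1 or 2 of the irradiated PTH group, 2 or 3 of the irradiated vehicle group, 2 or 3 of the nonirradiated PTH group, and 1 or 2 of the nonirradiated vehicle group (adjusted p up to 0.111), and also in 6 other settings, among them sex as a term, the replicate block and housekeeping centring (0.0523 to 0.0879). The median differences were -0.41 under PTH and -0.35 under vehicle. Ikzf3, the transcription factor Aiolos, fell by 2.76 under PTH and fell by 2.38 under vehicle (limma adjusted p = 0.000455 and 0.00136). Pou2af1, the octamer coactivator OBF-1, fell by 1.79 and fell by 1.28 (0.00045 and 0.00448). Slamf7, a surface receptor carried by plasma cells and other lymphocytes, fell by 1.86 and fell by 1.05 (0.000224 and 0.00846). Cxcr4, the receptor that retains plasma cells in marrow, fell by 0.80 and fell by 0.61 (0.00203 and 0.011). Its call under vehicle was lost without irradiated vehicle replicate 2 (0.0605) and in a fit of the 2 groups alone (0.0531). With the replicate block added to that fit it was lost too (0.234). So were the vehicle calls of Pou2af1 (0.12) and Slamf7 (0.0731), while that of Ikzf3 held.

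Of the same list, 3 genes named for their role and after their values were seen did not pass the test. Tnfrsf17, the receptor BCMA, differed by -0.03 under PTH and -0.12 under vehicle, with limma adjusted p = 0.948 and 0.769. Derl3, of the degradation machinery of the endoplasmic reticulum, differed by 0.03 and 0.04, and Fkbp11, a folding enzyme, by 0.19 and 0.08. Ikzf3, Pou2af1 and Cxcr4 are also active in B cells. The 19 measured B cell identity genes that plasma cells lose had 14 falls under PTH and 13 under vehicle, with medians of -2.13 and -1.69. Over all genes 1.74% were called lower under PTH and 1.01% under vehicle. Ms4a1, which encodes CD20, averaged 5.48 in irradiated PTH and 9.77 in nonirradiated PTH marrow, and 5.68 in irradiated vehicle and 10.02 in nonirradiated vehicle marrow (limma adjusted p = 8.52e-07 and 7.59e-07).

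Marker genes of other cell types that express Irf4 or Mzb1 were counted in the same way. Over all genes 6.1% were called in the average over both treatments, and 3.59% were called lower. Of 13 precursor B cell genes 8 fell on average and none rose, with a median of -1.09. Rag1, of the antigen receptor recombinase, fell by 2.61 (8.81e-06), and the receptor gene Il7r fell by 2.38 (limma adjusted p = 3.02e-06). Of 13 measured plasmacytoid dendritic cell genes 4 fell on average, among them Siglech, which fell by 1.56, and Ly6d, which fell by 1.29 (0.000137 and 9.78e-05), with a median over the list of -0.13. Of 16 measured T and NK cell genes 6 fell on average and 1 rose. Among those that fell, Cd2 fell by 1.975, Cd8b1 by 0.90 and Cd3e by 0.75 (limma adjusted p = 1.96e-05, 0.000282 and 0.00259). The 1 that rose was Gzmb, which encodes granzyme B, by 0.96 (0.000191). The mean level of the 19 B cell identity genes spanned 6.41 to 6.81 on irradiated PTH arrays and 8.38 to 8.61 on nonirradiated PTH arrays, and 6.69 to 7.09 on irradiated vehicle arrays and 8.15 to 8.69 on nonirradiated vehicle arrays. That of the 13 plasmacytoid genes spanned 7.10 to 7.61 on irradiated PTH and 7.81 to 7.91 on nonirradiated PTH arrays, and 7.40 to 7.68 on irradiated vehicle and 7.52 to 7.90 on nonirradiated vehicle arrays. The part of these cell types in the differences of Irf4 and Mzb1 was not tested.

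**Figure D4:**
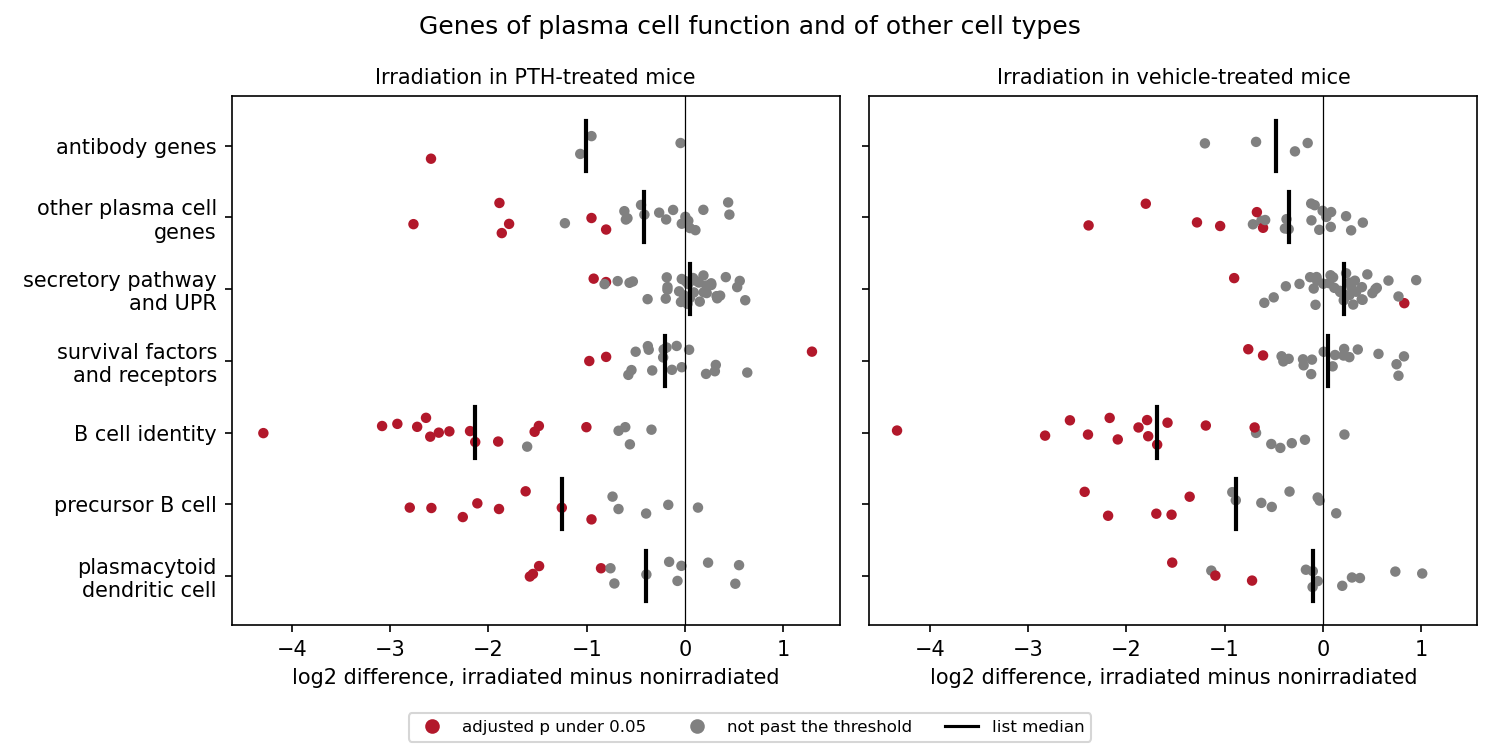
Log2 differences between irradiated and nonirradiated marrow (horizontal axis) for the genes of 7 lists (1 row per list), under PTH on the left and under vehicle on the right. Each point is a gene, red where it passed the threshold, and the black bar is the list median. The B cell identity genes lay furthest to the left, with medians of -2.13 under PTH and -1.69 under vehicle, and the secretory genes lay around 0, with medians of 0.05 and 0.21.

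The secretory machinery was covered by a list of genes that includes targets of XBP1. It held 37 measured genes of protein translocation, folding and the unfolded protein response (39 listed). In the average 27 of them had positive differences and 10 negative, called or not, with a median of 0.17. The split was also 27 and 10 under vehicle, and 22 and 15 under PTH. On average 3 were called lower and 0 higher, where 6.1% of all genes were called. The 3 were Ero1b, an oxidase of disulfide bond formation, which fell by 0.92, Eif2ak3, the stress kinase PERK, which fell by 0.70, and Herpud1, a degradation factor, which fell by 0.66 (limma adjusted p = 0.000457, 0.00404 and 0.0186). The Herpud1 call was lost without irradiated vehicle replicate 2 (0.0542), without irradiated vehicle replicate 3 (0.0536) and without nonirradiated PTH replicate 3 (0.0509), and without irradiated PTH replicate 3 the number of genes called in the list was 6. Under vehicle 1 gene fell and 1 rose, Creld2, a folding factor of the endoplasmic reticulum, by 0.83 (0.036), a call that was lost without any 1 of the 3 irradiated vehicle or the 3 nonirradiated vehicle arrays, or without replicate 1 or 3 of the nonirradiated PTH group (adjusted p up to 0.167 over all alternatives). Calr, the gene of the list with the next smallest p in the average, differed by 0.35 and did not pass (limma adjusted p = 0.056). It was called with array weights, without both narrow-range arrays and without irradiated PTH replicate 3. Hspa5, the chaperone BiP and a classic indicator of the response, differed by 0.07 on average (0.85). Hspa5 was named for its role and after its values were seen.

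Among 20 measured survival factors and receptors (21 listed), 2 fell and 1 rose on average, where 6.1% of all genes were called. The median of the list was -0.06. Tnfsf13b, the cytokine BAFF, fell by 0.87 (limma adjusted p = 0.000578), and Cxcr4, which is also in the longer plasma cell list, fell by 0.71 (0.000161). Il6, interleukin-6, which sustains plasma cells in culture, rose by 1.03 (0.00267). Under PTH Il6 rose by 1.29 (0.0131). That call was lost with a term for sex and without nonirradiated PTH replicate 1 or 2 (adjusted p up to 0.141). Il6 was not called under vehicle. It was 4.93, 4.87 and 5.25 on irradiated PTH arrays against 3.79, 3.56 and 3.81 on nonirradiated PTH arrays, and 4.32, 4.89 and 4.79 on irradiated vehicle arrays against 4.50, 3.59 and 3.60 on nonirradiated vehicle arrays. In none of these lists was a gene called for PTH against vehicle, in either irradiation state.

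Over the 12 arrays the members split in their likeness to Jchain, measured as Pearson r of log2 values and given as a description, since the arrays share their groups. The r was -0.87 for Irf4 and -0.746 for Mzb1, against 0.187 for Xbp1, 0.161 for Prdm1 and -0.195 for Sdc1. Once each array was taken as its deviation from its group mean, the r to Jchain was -0.177 for Irf4 and 0.16 for Mzb1. Irf4 and Mzb1 had an r of 0.901 with each other, and 0.601 between their deviations. Xbp1 had an r of -0.251 to Irf4 but 0.837 between deviations, and of 0.631 to Sdc1 with 0.827 between deviations. Irradiated PTH replicate 3 was the lowest array for Xbp1, Irf4 and Sdc1 alike.

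Of the other 19937 genes, those most like Jchain were Avpr1a, Zfp352, Apol10a, Tal1, Apod, Hs3st3a1, Ccn5 and Mgp, with r between 0.898 and 0.92. Mgp averaged 10.7 in irradiated PTH, 10.1 in irradiated vehicle, 8.41 in nonirradiated PTH and 8.10 in nonirradiated vehicle marrow. At the other end stood Slamf7, which had the lowest r of all at -0.969, with -0.782 between deviations, and then, with predicted genes passed over, Foxo1, Slain1 and Slamf6, at -0.951 to -0.945. On the irradiated arrays Slamf7 was 7.87, 8.33 and 7.63 with PTH and 8.69, 8.52 and 8.47 with vehicle. All 3 irradiated PTH arrays lay below all 3 irradiated vehicle arrays, while for Jchain they lay above. Slamf7 is named here for its r to Jchain, which favours such an order, and nothing is read from it. Its log2 difference between PTH and vehicle after irradiation was -0.62 and did not pass (limma adjusted p = 0.844). These groups did not overlap for 9.73% of all genes.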

How the data were processed

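The authors deposited 1 table of log2 values for the 12 arrays. Per the submitters' processing notes the tools were affy, RMA and limma, with no versions or roles given. That the deposited values are log2 was read from the values and the name RMA, and no source used here names the genome build. RMA draws the arrays towards a common distribution, so differences are relative to the other genes on an array. The deposited values do not fully share a distribution. Irradiated PTH replicate 3 and nonirradiated vehicle replicate 3 had narrower interquartile ranges than the other arrays, at 2.66 and 2.63.

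Of 35556 rows, 21789 had 1 gene symbol, 1621 had several and 12146 were not listed in the annotation or carried no symbol there. The rows with 1 symbol gave 19938 genes, and the row with the highest mean was taken for the 999 genes with several. Symbols were updated through RefSeq's GRCm38.p6 table, with 91 rows unmatched. A limma 3.58.1 model (R 4.3.3) of 4 group means was fitted, with 8 residual degrees of freedom and 7 contrasts. Calls were made at 0.05 after Benjamini-Hochberg adjustment over all genes. Sex was read from Xist and Y-linked genes. The number of arrays limits the precision: the median SE of a difference between 2 groups was 0.166.

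The members and the gene lists were chosen with earlier results of these data known. Of each list, up to 4 genes with the smallest p were named, and further genes as stated. On simulated data for irradiation in vehicle-treated mice, with 200 of 19938 genes changed in 10 simulations, 10.1%, 65.5% and 96.1% of changes of 0.5, 1 and 2 on the log2 scale were called, and 4.28% of calls were false. Alternatives covered the variance model, array weights, normalization, scaling, filters, row choice, the replicate block, sex, the narrow-range arrays and each array left out.

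Replicate numbers were checked as pairs through the correlation of deviations from the group means. Only in the comparison of PTH with vehicle after irradiation were all 3 pairs above 0.1, at 0.447, 0.144 and 0.57, and there the pairs were taken as a block in an alternative fit. The pairing comes from these correlations and not from the labels, and in both groups replicate 1 is the array with the female pattern.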

Additional observations from a re-analysis of the deposited data

How the results depend on the processing

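Under vehicle, 1 of the 5 tested genes was called lower after irradiation, and 2 were called with array weights and without both narrow-range arrays, Mzb1 being the addition (limma adjusted p = 0.0431 and 0.0308). Under PTH 2 were called, against 1 when all rows of the table were tested and 1 with sex as a term, and between 1 and 2 when each array was left out. In both cases the gene that gained or lost its call was Mzb1, and the cause was not tested. In the average over both treatments 2 were called, and 3 with array weights, where Xbp1 was added at 0.44 (0.0444). The paired fit of PTH against vehicle after irradiation, on those 2 groups with the replicate block, called 0 of the 5 genes and 1 of all genes. The replicate block left the members' calls as they were in the other comparisons. No called difference changed sign in 845 refits of the 5 genes over all contrasts, and 68 uncalled ones did. Over all genes, the number called ran from 78 to 1149 under vehicle (442 as reported, fewest in the 2 groups alone with the replicate block and most with array weights), from 200 to 1148 under PTH (485, fewest with sex as a term), and from 822 to 2517 in the average (1216). For PTH against vehicle 0 genes were called, and at most 1 after irradiation and 4 without it in any alternative. Among the lists, the number of the 23 other plasma cell genes called ran from 1 to 10 under vehicle (6 as reported) and from 5 to 10 under PTH (6), and that of the secretory genes from 2 to 10 in the average (3). Ighm under vehicle passed the test only with its dimmest row (0.00164) or the mean of its rows (0.00583), and under PTH with these and 4 other settings. In the simulation of irradiation in vehicle-treated mice, with 3 arrays a group, changes of 0.5 on the log2 scale were mostly missed. No simulation is given for the other comparisons or for the average over both treatments.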
